A study of Mus musculus with 6 samples.

Results

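The 8 genes compared here between sorted cell types of the mouse lung encode proteins that the epithelium releases or carries to its surface in defence against microbes: Bpifa1, Bpifb1, Ltf, Pigr, Lyz1, Lyz2, Lcn2 and Chil1. They were picked by name, for function, with earlier results of these data known, and are 8 of the 22239 genes in the table. All 8 were found once in it and all 8 passed the filter on low values. The 4 genes Bpifa1, Bpifb1, Ltf and Pigr were highest in Club cells, and the 4 genes Lyz1, Lyz2, Lcn2 and Chil1 were lowest there. In bronchioalveolar stem cells (BASC) the mean of each airway gene was at most 2.27% of the Club mean. The mean of Lyz2 was highest there of the 3 populations. Its difference from alveolar type 2 cells was not significant (limma adjusted p = 0.539).

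Airway and alveolar epithelium release proteins that bind, starve or lyse microbes before they reach the cells. Lactoferrin and lipocalin-2 withhold iron, lysozymes cleave the bacterial cell wall, BPI-fold proteins coat the airway surface, and the polymeric immunoglobulin receptor carries IgA across the epithelium. Secretory cells of the conducting airways are a known source of the BPI-fold proteins, and alveolar type 2 cells are a known source of lysozyme.

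RNA was sequenced in bulk from 3 epithelial populations, 2 samples of each, of mice 8 weeks old. All 6 samples came from lung homogenates depleted of cells carrying CD31 or CD45, the markers of endothelial and blood cells, and were sorted by reporters of the animals' own genes. BASC carried both reporters (CCSP-mCherry+/SPC-YFP+), alveolar type 2 (AT2) cells, which make surfactant, carried SPC-YFP, and Club cells, which line the bronchioles and secrete, carried CCSP-mCherry. CCSP is the product of Scgb1a1 and SPC that of Sftpc. The labels give no genotype, sex or treatment and leave it unsaid whether the 2 samples of a group are from different animals. The spread behind each p-value is thus that between these samples, and it may be technical.

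The table holds normalised read counts. Estimated reads in its genes ran from 10126420 to 18193721 per sample, so that 1 read was worth between 0.764 and 1.34 normalised counts. The reporter genes, on which the sort selected, stood where the labels put them. The mean of Sftpc was 299134 normalised counts in BASC against 337505 in AT2 and 232 in Club cells, and that of Scgb1a1 was 51392, 358 and 756159. Summed values of 8 AT2 markers were 77439 and 95640 in the Club samples, 1020271 and 1114998 in the AT2 samples and 948683 and 961995 in the BASC samples. Those of 8 Club markers were, in the same order, 1083229 and 1100917, 19188 and 21984, and 102511 and 125977. Values are from whole sorted populations, in which fewer cells of a type and less RNA per cell cannot be told apart.

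The airway group was led by the BPI-fold proteins. Bpifa1 (ENSMUSG00000027483, chr2:154142880-154149219, plus strand, 9 exons, mm10) encodes a secreted protein of upper airway fluid that lowers surface tension and binds bacteria. It had 64511 and 25250 normalised counts in the Club samples, 1 and 5 in AT2 and 480 and 21 in BASC. Both Club samples lay far above the other 4, and both BASC samples lay above both AT2 samples. Bpifb1 (ENSMUSG00000027485, chr2:154190818-154220369, plus strand, 16 exons), a longer relative encoded on the same strand 41599 bases away, had 22921 and 18573 in Club cells, 1 and 2 in AT2 and 151 and 23 in BASC. The order of the groups was the same, with no overlap between them.

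Ltf (ENSMUSG00000032496, chr9:111019271-111042767, plus strand, 17 exons) encodes lactoferrin, which binds iron and disturbs bacterial membranes. It had 11097 and 4665 normalised counts in Club cells, 1 and 0 in AT2, and 40 and 0 in BASC. The BASC and AT2 samples overlapped, since 1 sample of each was listed at 0, which with a floor of 3 reads allows up to 2.75 normalised counts in BASC replicate 2 and 3.21 in AT2 replicate 2, by counting error only. Pigr (ENSMUSG00000026417, chr1:130826684-130852249, plus strand, 11 exons) encodes the receptor whose cleaved outer part, secretory component, stays bound to IgA. It had 14448 and 14409 in Club cells, 60 and 41 in AT2 and 260 and 395 in BASC, and the 3 groups did not overlap.

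The alveolar group was led by the 2 lysozymes, which lie 5476 bases apart on the minus strand. Lyz2 (ENSMUSG00000069516, chr10:117277331-117282321, 4 exons), the lysozyme of macrophages and AT2 cells, had 178232 and 179734 normalised counts in AT2, 254508 and 262419 in BASC, and 2179 and 990 in Club cells. Both BASC samples lay above both AT2 samples, and the Club samples far below. Lyz1 (ENSMUSG00000069515, chr10:117287797-117292868, 4 exons), best known as the lysozyme of intestinal Paneth cells, had 10035 and 16981 in AT2, 3947 and 3524 in BASC, and 1 and 3 in Club cells. Here the AT2 samples lay above the BASC samples, and the Club samples were near the floor.

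Lcn2 (ENSMUSG00000026822, chr2:32384633-32387797, minus strand, 6 exons) encodes lipocalin-2, which traps bacterial iron carriers. It had 4922 and 5697 normalised counts in AT2, 2528 and 2953 in BASC, and 492 and 413 in Club cells. Chil1 (ENSMUSG00000064246, chr1:134182176-134190181, plus strand, 10 exons) encodes a secreted chitinase-like protein that binds chitin without cleaving it, and had 35797 and 38932 in AT2, 26640 and 23000 in BASC, and 2901 and 3654 in Club cells. For both genes the AT2 samples were highest, the BASC samples next and the Club samples lowest, with no overlap.

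**Figure D1:**
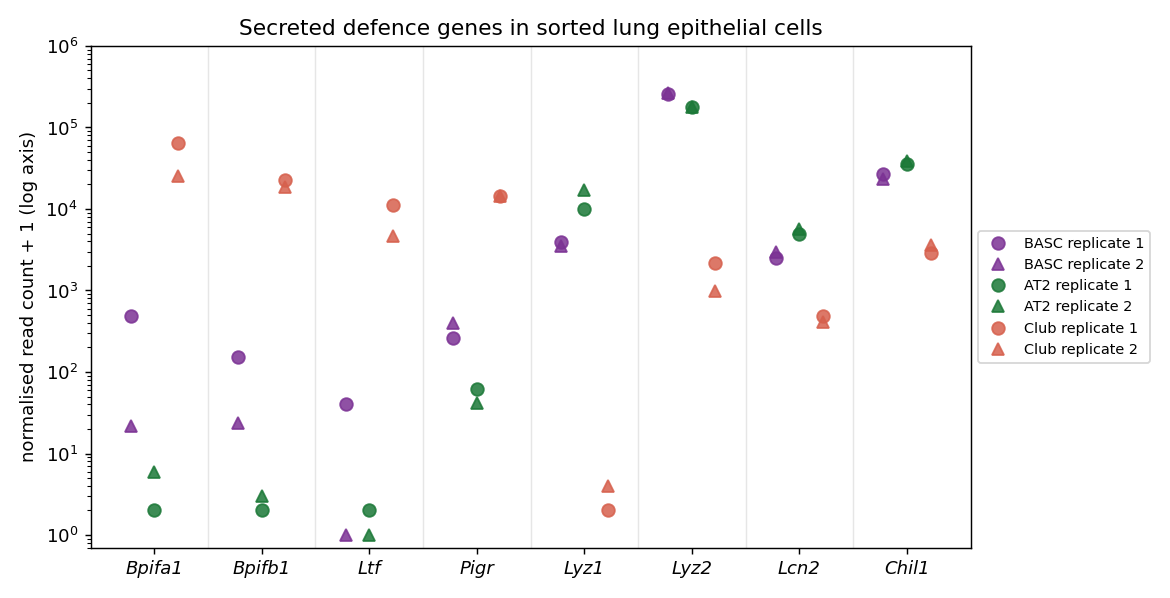
Normalised read count + 1 (vertical log axis) of the 8 genes, with 1 point per sample and colours for BASC, AT2 and Club cells. Bpifa1, Bpifb1, Ltf and Pigr were highest in both Club samples, while Lyz1, Lyz2, Lcn2 and Chil1 were lowest there. Bpifa1 in the BASC samples (480 and 21) is the widest-spread pair among values above 10.

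Against Club cells, AT2 cells differed in all 8 genes. The fit was limma on log2(value + 1) over 17721 genes, a call is a Benjamini-Hochberg adjusted p under 0.05, and a fitted log2 change understates the change of genes near 0. Of the 8 genes, 4 were called lower in AT2 and 4 higher, beside 9.71% and 8.42% of all genes tested. The lower ones were the airway genes and the higher ones the alveolar genes. These groups are named by the same values, so that split is no test. The median log2 fold change was -2.32 over the 8 genes, a midpoint between 4 lower and 4 higher genes, and -0.10 over all genes tested. With the counts scaled to the total without ribosomal RNA, mitochondrial and reporter genes, the median of all genes moved to -0.31, and the called genes were 35% higher ones (1201 against 2232 lower) in place of 46.5% (1492 against 1720). The calls of the 8 genes held under all 15 other settings, which include leaving out each sample.

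Bpifa1 was 14960.2-fold lower in AT2 by the ratio of means, on 6 AT2 reads (fitted log2 fold change -13.51 ± 1.32 SE, limma adjusted p = 0.000605, n = 2 per group). Bpifb1 was 13831-fold lower by the ratio of means (limma adjusted p = 6.85e-05). It had 3 reads in the AT2 samples together, and its ratio of reads, corrected for depth, was 15702 with a 95% counting interval from 5373 to 76144. Ltf had 1 AT2 read (limma adjusted p = 0.00247), and its ratio of reads, 18509.6, has an interval from 3322 to 731131. These intervals cover counting error only. Pigr, with 117 estimated reads in AT2, was 286-fold lower (log2 -8.16 ± 0.27, limma adjusted p = 6.27e-06), the smallest ratio of the 4. Without Club replicate 1 the ratio was 8417 for Bpifa1 and 9330 for Ltf (15762 by the means of all samples), and without AT2 replicate 1 or 2 that of Bpifa1 was 8976 or 44880.5. Without AT2 replicate 1 the other AT2 sample had Ltf at 0, at least 2455-fold lower.

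The alveolar genes fell into a wide and a narrow pair. Lyz1 was 6754-fold higher in AT2 than in Club cells, on 4 Club reads (log2 12.17 ± 0.38, limma adjusted p = 4.82e-06), and Lyz2 was 113-fold higher (log2 6.93 ± 0.31, adjusted p = 1.6e-05), or 181-fold without Club replicate 1. Without Club replicate 2 the Lyz1 ratio was 13508, on 1 Club read. Lcn2 was 11.7-fold higher (log2 3.55 ± 0.16, limma adjusted p = 1.6e-05) and Chil1 11.4-fold higher (log2 3.52 ± 0.14, adjusted p = 9.45e-06). The Club means were 3278 normalised counts for Chil1, 1585 for Lyz2 and 452.5 for Lcn2, and only Lyz1 was near the floor there.

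Levels of different genes were compared per kilobase of the longest transcript that GENCODE marks as principal for the gene (APPRIS, basic set). In Club cells the mean level was 40579 normalised counts per kb for Bpifa1, 12211 for Bpifb1, 3749 for Pigr and 2873 for Ltf. The alveolar genes followed with 1943 for Chil1, 1204 for Lyz2, 494.5 for Lcn2 and 1.58 for Lyz1. Ltf, which ran from 1701 to 4046 per kb between the Club samples, overlapped its neighbours in this order, Pigr and Chil1, while Chil1 (1720 to 2166) and Lyz2 (752 to 1656) did not overlap. In AT2 cells the order was Lyz2 with 136005 per kb, Chil1 with 22149, Lyz1 with 10695 and Lcn2 with 5803, and these ranges did not overlap. In BASC Lyz2 reached 196401 per kb and Chil1 14713, and Lcn2 with 2995 and Lyz1 with 2958 could not be separated.

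Lyz2 was among the most abundant RNAs of the distal cells. By mean normalised count it ranked 2 of 14861 protein-coding genes in BASC, 6 in AT2 cells and 1154 in Club cells. Bpifa1 ranked 9 in Club cells and Bpifb1 28. The 8 genes together held 0.931% and 0.515% of all normalised counts in the Club samples, 1.65% and 1.71% in the AT2 samples and 2.13% and 2.17% in the BASC samples. The sum was made mostly of Lyz2 in BASC and AT2 (74.5% to 89.8% of it) and of Bpifa1 in Club cells (54.4% and 37.2%).

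BASC were next set against Club cells. All 8 genes were called, in a comparison that shares its Club samples with the one above and is not independent of it. Of the 8, 4 were called lower in BASC (the airway genes) and 4 higher (the alveolar genes), beside 5.42% and 5.77% of all genes tested. The median log2 fold change was -1.45 over the 8 genes, again a midpoint between 4 lower and 4 higher genes, and -0.10 over all genes tested. With the scaling without ribosomal RNA, mitochondrial and reporter genes the median of all genes was -0.25, and the called genes were 40.4% higher ones (856 against 1264 lower) in place of 51.5% (1022 against 961).

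Among the airway genes, Bpifa1 was 179-fold lower in BASC than in Club cells (log2 -8.62, limma adjusted p = 0.00741), Bpifb1 238-fold (log2 -8.42, adjusted p = 0.000931) and Ltf 394-fold (log2 -10.13, adjusted p = 0.00933). Pigr was 44.1-fold lower (log2 -5.49, limma adjusted p = 4.77e-05). The calls of Bpifa1 and Ltf were lost when limma's variances were shrunk without a trend, with adjusted p = 0.068 and 0.0629; over all 15 other settings their adjusted p ran from 0.0011 to 0.068 and from 0.000242 to 0.0629. The ratios moved with single samples. Without BASC replicate 1 that of Bpifa1 was 2137 and that of Bpifb1 902, and Ltf was at least 2868-fold lower. Without BASC replicate 2 they were 93.5 for Bpifa1, 137 for Bpifb1 and 197 for Ltf, and without Club replicate 1 they were 101 for Bpifa1 and 233 for Ltf. Among the alveolar genes, Lyz1 was 1868-fold higher in BASC (log2 10.37, limma adjusted p = 1.52e-05) and Lyz2 163-fold (log2 7.46, adjusted p = 2.33e-05), which became 3735.5-fold for Lyz1 without Club replicate 2 and 261-fold for Lyz2 without Club replicate 1. Chil1 was 7.57-fold higher (log2 2.93, limma adjusted p = 4.01e-05) and Lcn2 6.06-fold (log2 2.60, adjusted p = 0.000102).

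BASC were then set against AT2 cells, the comparison with the smallest differences. Of the 8 genes, 1 was called higher in BASC and 0 lower, while 0.553% and 0.079% of all genes tested were called higher and lower. At an unadjusted p under 0.05, limma had 3 of the 8 higher and 3 lower. The shares above do not apply to that looser threshold, for which no share of all genes is given here. The median log2 fold change was 1.35 over the 8 genes, which went both ways, and 0 over all genes tested. It lay between the values of Lyz2 (0.53) and Ltf (2.18), neither of which was called. These values share the BASC and AT2 samples with the comparisons above.

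Pigr was the gene called. Its BASC samples had 260 and 395 normalised counts against 60 and 41 in AT2, a 6.49-fold difference (log2 2.67 ± 0.27, 95% interval 2.02 to 3.31, limma adjusted p = 0.0103). The call was lost under 5 of 15 other settings, among them leaving out BASC replicate 1 (adjusted p = 0.0878), BASC replicate 2 (0.206) or AT2 replicate 2 (0.0516); over the 15 it ran from 0.00175 to 0.206. The difference stayed positive in all of them.

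The other 3 airway genes did not pass. Bpifb1 had a log2 fold change of 4.62 in BASC over AT2 (95% interval 2.73 to 6.52, limma adjusted p = 0.0719), which passed with a filter of 50 normalised counts (0.0214, range over 15 settings 0.0214 to 0.322). Its ratio of means was 58.0, and 15.3 without BASC replicate 1 or 101 without BASC replicate 2. Bpifa1 had a log2 fold change of 4.89 (interval 1.78 to 8.00, limma adjusted p = 0.177). Its ratio of means was 83.5, and it was 7 and 160 without BASC replicates 1 and 2, and 50.1 and 250.5 without AT2 replicates 1 and 2. Ltf had 2.18 (interval -1.67 to 6.03, limma adjusted p = 0.643), and without BASC replicate 1 it turned to -0.50.

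Of the alveolar genes, Lyz1 was 3.62-fold lower in BASC than in AT2 by the means (log2 -1.81 ± 0.38, 95% interval -2.71 to -0.91, limma adjusted p = 0.112). Lcn2 was 1.94-fold lower (log2 -0.95 ± 0.16, interval -1.33 to -0.58, adjusted p = 0.0627). The samples of the groups did not overlap, which with 2 samples per group shows little by itself. Neither gene passed the threshold. Both were called lower under 6 of 15 other settings, including leaving out either Club sample, with adjusted p from 0.0126 to 0.336 for Lyz1 and 0.0198 to 0.31 for Lcn2. Without Club replicate 1 the values were 0.013 for Lyz1 and 0.0409 for Lcn2, and without Club replicate 2 they were 0.0126 and 0.0383.

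Lyz2 went the other way by its means, 1.44-fold higher in BASC (log2 0.53 ± 0.31, 95% interval -0.20 to 1.26, limma adjusted p = 0.539). The Club samples, which enter the fit, differed 2.20-fold, and without Club replicate 1 or 2 the adjusted p was 0.0345 or 0.027. Chil1 was 1.51-fold lower in BASC (log2 -0.59 ± 0.14, interval -0.92 to -0.27, limma adjusted p = 0.134), and it was called under none of the 15 other settings. A p above the threshold does not show that the levels are alike.

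**Figure D2:**
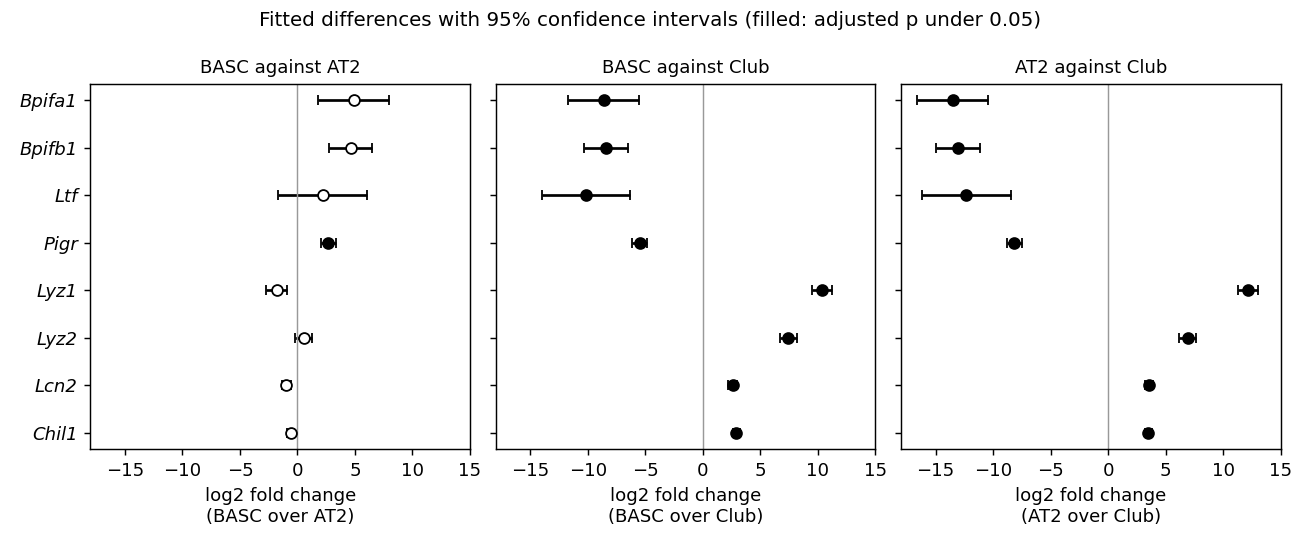
Fitted log2 fold changes of the 8 genes with 95% confidence intervals, with 1 panel for each comparison, and filled points for limma adjusted p under 0.05. All 8 points are filled in BASC against Club and in AT2 against Club cells, and only Pigr is filled in BASC against AT2 cells, where the intervals of Bpifa1, Bpifb1 and Ltf are the widest.

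The place of BASC between the other populations was described on unlogged means, as the share of the way from the AT2 to the Club level. The share was 0.552% for Bpifa1, 0.412% for Bpifb1, 0.247% for Ltf and 1.93% for Pigr. Over the 8 choices of 1 sample per group, the ranges were 0.0248% to 1.90%, 0.0916% to 0.808%, -0.0214% to 0.857% and 1.39% to 2.46%. Among other Club genes, the share was 6.75% (5.73% to 7.79%) for Scgb1a1, on which the sort selected, 12.9% (11.4% to 14.5%) for Cyp2f2, a cytochrome P450 of Club cells, and 1.41% (0.819% to 2.01%) for Scgb3a2, a secretoglobin. Aldh1a1, an aldehyde dehydrogenase also listed as a Club marker, had 52198 and 46721 normalised counts in the Club samples, 32 and 12 in the AT2 samples and 675 and 1027 in the BASC samples, so Club genes differed among themselves. The ranges of Bpifa1, Bpifb1, Ltf and Pigr thus did not reach those of Scgb1a1 or Cyp2f2, while those of Pigr, Bpifa1 and Ltf overlapped that of Scgb3a2. No test was made of these shares.

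For the alveolar genes the BASC level was read against the AT2 mean. Lyz2 stood at 144% of it, Chil1 at 66.4%, Lcn2 at 51.6% and Lyz1 at 27.7%, beside 88.6% for Sftpc. Lyz2 was thus above Sftpc on this scale, and Chil1, Lcn2 and Lyz1 below it. On the way from AT2 to Club, Lyz1 was at 72.4% (60.7% to 79.3%), Lcn2 at 52.9% (43.7% to 60.9%) and Chil1 at 36.8% (27.8% to 45.2%). Lyz2 was at -44.8% (-47.8% to -41.8%), outside the interval between both populations.

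**Figure D3:**
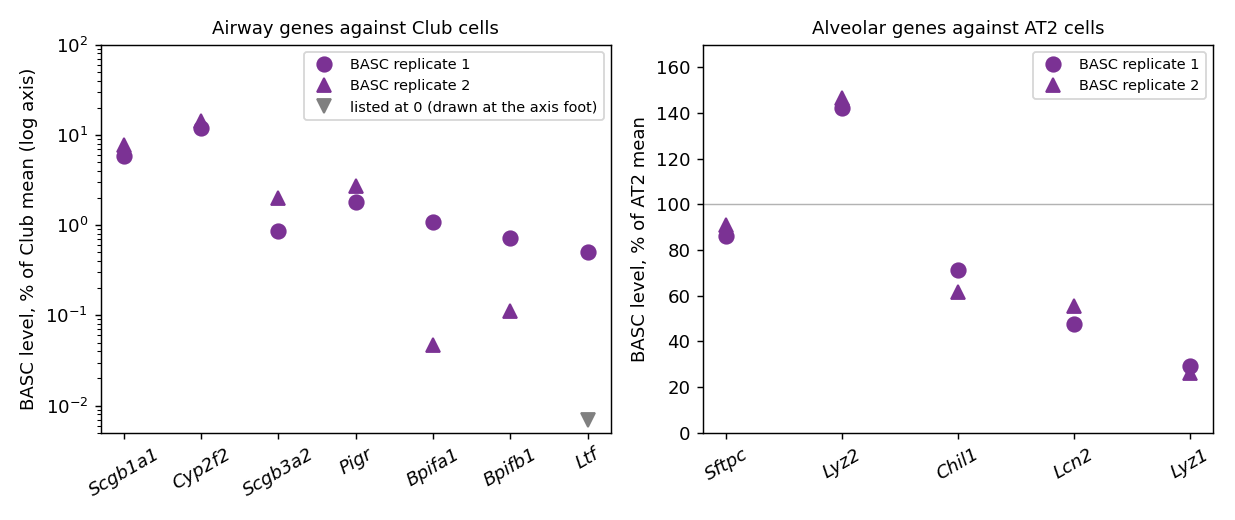
BASC level of airway genes as a percent of the Club mean (left, log axis) and of alveolar genes as a percent of the AT2 mean (right), with the 2 BASC samples as points. The mean of Bpifa1, Bpifb1 and Ltf lay below 1% of the Club mean and that of Pigr at 2.27%, against 6.80% for Scgb1a1. On the right, Lyz2 lay at 144% and Lyz1 at 27.7%.

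The lysozyme genes are close copies, so their counts may exchange reads. Their longest protein-coding transcripts were 92.0% identical in a global alignment, and 195 of 1214 stretches of 50 bases in Lyz1 (16.1%) were also found in Lyz2. The sources used here do not say how the authors' counting treated reads that fit both, so the values of both genes carry that uncertainty. Lyz1 made up 0.0459% and 0.302% of the summed lysozyme counts in the Club samples, 5.33% and 8.63% in the AT2 samples and 1.53% and 1.33% in the BASC samples. The AT2 shares lay above the BASC shares in every sample, so the 2 genes were not a fixed ratio of each other. The other 6 genes shared no stretch of 50 bases with another gene, except Pigr with 18 of 3928, most of them with Fam124a.

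The 250 bases before the RefSeq start of each lysozyme gene (GRCm38.p6) are shown because the genes differ in level between the cell types while their upstream bases are alike, with 200 identical columns of 252 (79.4%). Both are written in the direction of the gene, Lyz1 at chr10:117292869-117293118 and Lyz2 at chr10:117282273-117282522, both on the minus strand. Capitals mark matches to the letters TTNNGNAA, the core of the motif bound by C/EBP transcription factors, on either strand.
Lyz1: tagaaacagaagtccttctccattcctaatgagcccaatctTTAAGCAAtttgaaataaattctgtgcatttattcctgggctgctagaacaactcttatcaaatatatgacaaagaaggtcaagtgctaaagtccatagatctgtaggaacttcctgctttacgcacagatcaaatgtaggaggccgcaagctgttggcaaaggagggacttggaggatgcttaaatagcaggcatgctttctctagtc
Lyz2: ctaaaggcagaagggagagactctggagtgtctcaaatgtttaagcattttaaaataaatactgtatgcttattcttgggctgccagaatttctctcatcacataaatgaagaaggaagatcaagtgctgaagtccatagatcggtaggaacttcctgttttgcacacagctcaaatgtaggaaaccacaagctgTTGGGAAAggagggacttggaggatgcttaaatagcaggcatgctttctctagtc
In Lyz1 the match began 209 bases before the start and in Lyz2 55 bases before it, so the matches were at different places. Among all 32851 RefSeq promoter windows of 300 bases (250 before and 50 after the start), 40.7% held this motif, so a match is common, and 6 of the 8 genes held it. The kappaB motif, searched on both strands as GGGA, any 4 bases and CC, was in 20.7% of the windows and in those of 3 of the 8 genes, Pigr, Chil1 and Bpifb1. A match is a stretch of letters and not a measured binding site.

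Within BASC, Bpifa1, Bpifb1 and Ltf differed more between the 2 samples than the other 5 genes did. BASC replicate 1 exceeded replicate 2 in Bpifa1 (480 against 21 normalised counts), Bpifb1 (151 against 23) and Ltf (40 against 0). Club replicate 1 exceeded replicate 2 in Bpifa1 (64511 against 25250) and Ltf (11097 against 4665), and less so in Bpifb1 (22921 against 18573). Pigr did neither, with 260 against 395 in BASC and 14448 against 14409 in Club cells.

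Bpifa1, Bpifb1 and Ltf were ranked among 514 protein-coding genes called lower in AT2 than in Club cells with a Club mean of at least 1000. These 514 were chosen by a fit of the same samples, without regard to their level in BASC, so the ranks are descriptions. In BASC, Ltf (40 and 0), Reg3g (33 and 0) and Lgr6 (23 and 0) had low counts, where few reads make a large log2 difference. On the log2(value + 1) scale BASC replicate 1 exceeded replicate 2 by 5.36 in Ltf, the highest of the 514, by 4.45 in Bpifa1 (rank 4) and by 2.66 in Bpifb1 (rank 6). The ranks between and after them were held by Reg3g (5.09, rank 2), a C-type lectin that kills gram-positive bacteria, Lgr6 (4.59, rank 3), Dnah5 (3.50, rank 5), a dynein of motile cilia, and Scgb3a1 (2.22, rank 7), a secretoglobin of larger airways. These were named after their values were seen. Of the 514 genes, 231 were higher in BASC replicate 1, and the median difference was -0.03, so Club genes as a whole were not higher in that sample. Scgb1a1 differed by -0.42 (rank 436) and Pigr by -0.60 (rank 461).

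Between the Club samples Bpifa1, Ltf and Scgb3a1 stood high again, and Reg3g, Bpifb1, Lgr6 and Dnah5 less so or not at all. The log2 difference of replicate 1 over 2 was 1.35 for Bpifa1 (rank 2 of 514), 1.25 for Ltf (rank 3), 0.91 for Scgb3a1 (rank 6) and 0.30 for Bpifb1 (rank 35). It was 0.40 for Reg3g (rank 25), 0.12 for Lgr6 and 0.03 for Dnah5. Of 2077 genes with a Club mean of at least 1000, 0.0963% differed by as much as Bpifa1, 0.144% by as much as Ltf and 12.7% by as much as Bpifb1. The median absolute difference was 0.124. Replicates of 1 group have no order, and the labels do not tie equal replicate numbers to a shared animal.

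**Figure D4:**
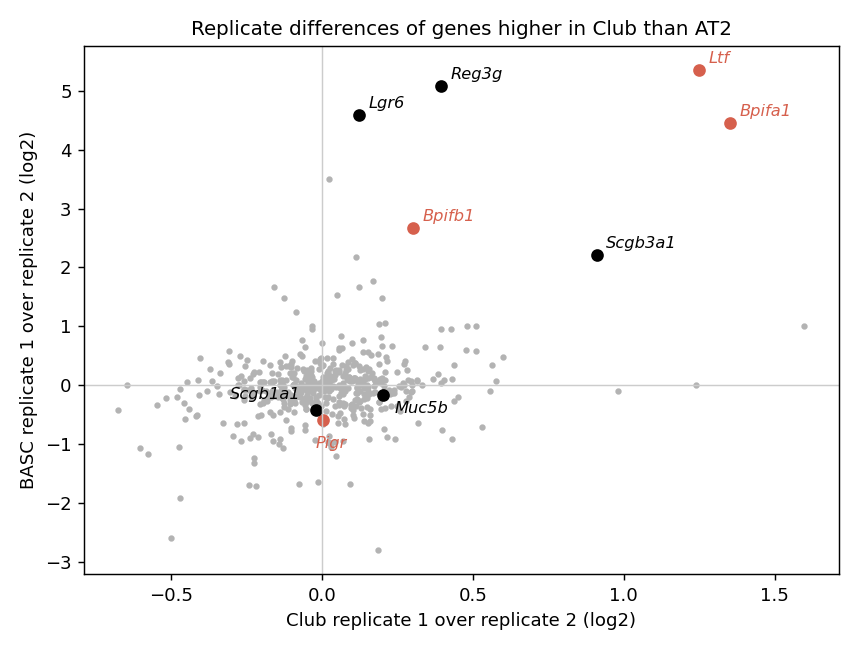
Log2 difference of replicate 1 over replicate 2 in Club cells (horizontal) and in BASC (vertical) for 514 genes called higher in Club than in AT2 cells, 1 point per gene, with the members and comparison genes named. Ltf (1.25 and 5.36) and Bpifa1 (1.35 and 4.45) lie at the upper right, away from Pigr (0.00 and -0.60) and Scgb1a1 (-0.02 and -0.42).

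Markers of other cells were read beside these values. Of 11 neutrophil markers, 3 had values in the table, and their sum was 91 and 0 normalised counts in BASC replicates 1 and 2, against 0 and 12 in the AT2 samples and 28 and 21 in the Club samples. Lactoferrin and lipocalin-2 are also neutrophil granule proteins. Ngp (52) and S100a9 (35) made up most of the sum in BASC replicate 1 and were at 0 in BASC replicate 2. The 3 erythroid markers in the table (of 5) summed to 35 and 0 in BASC, against 13 and 9 in the AT2 samples and 34 and 30 in the Club samples. Lcn2 was not higher in that sample, with 2528 against 2953. Neutrophil and erythroid markers moved with Ltf, Bpifa1 and Bpifb1 within BASC; in Club cells S100a9 and Ngp were at 0. Their part in the result was not tested.

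The 7 goblet cell markers summed to 75092 and 66182 in the Club samples, 68 and 37 in the AT2 samples and 418 and 517 in the BASC samples. Most of this was Muc5b, a gel-forming mucin, with 71552 and 62105 in Club cells, while Agr2, Tff2 and Gp2 were at 0 in all 4 BASC and AT2 samples. The goblet sum was not higher in BASC replicate 1. The 7 ciliated cell markers summed to 5427 and 5491 in the Club samples, 846 and 872 in the AT2 samples and 1022 and 898 in the BASC samples, and the 4 serous gland markers in the table (of 7) to 427 and 297, 155 and 130, and 269 and 160. Goblet, ciliated and serous gland sums were highest in Club cells, as the airway genes were, and their part in the result was not tested. The serous gland markers were split: Azgp1 and Sox9 were highest in Club cells, Bhlha15 and Lpo lowest there. Bhlha15 had 41 and 47 in the Club samples, 155 and 117 in the AT2 samples and 269 and 159 in the BASC samples.

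Macrophages carry much Lyz2 and some Lcn2 and Chil1. Of 16 macrophage and monocyte markers, 6 had values in the table, and their sums were 1200 and 1256 in the Club samples, 637 and 956 in the AT2 samples and 625 and 885 in the BASC samples. Ptprc, Adgre1, Marco, Mrc1 and Itgax had no row in the table used here, in which the lowest maximum of any gene was 7. Most of the Club sum was Cd14, the lipopolysaccharide co-receptor, with 1041 and 1027 in the Club samples, 298 and 424 in the AT2 samples and 249 and 489 in the BASC samples. The other 5 markers summed to 159 and 229 in Club cells, 339 and 532 in AT2 and 376 and 396 in BASC. These 5 were split. Ly6c2 was at 0 in both Club samples, with 66 and 103 in AT2 and 9 and 36 in BASC. Csf1r had 37 and 87 in Club cells and also in AT2, and 118 and 81 in BASC. Fcgr1 had 8 and 0 in Club cells, 0 in both AT2 samples and 4 and 0 in BASC. The part of these markers in the result was not tested. Cd68, a lysosomal protein of macrophages, had 114 and 132 in the Club samples, 236 and 280 in the AT2 samples and 234 and 274 in the BASC samples.

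The promoters of Bpifa1 and Ltf are shown because the 2 genes lie on different chromosomes and both were higher in replicate 1 of BASC and of Club cells. They are the 250 bases before the RefSeq start on the plus strand, at chr2:154142630-154142879 for Bpifa1 and at chr9:111019042-111019291 for Ltf (GRCm38.p6), with matches to TTNNGNAA on either strand in capitals.
Bpifa1: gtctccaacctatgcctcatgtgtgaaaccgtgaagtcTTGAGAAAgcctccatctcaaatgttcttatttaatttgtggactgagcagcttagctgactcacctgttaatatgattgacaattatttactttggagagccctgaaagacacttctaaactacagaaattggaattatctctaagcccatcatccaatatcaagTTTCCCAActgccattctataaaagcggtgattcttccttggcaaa
Ltf: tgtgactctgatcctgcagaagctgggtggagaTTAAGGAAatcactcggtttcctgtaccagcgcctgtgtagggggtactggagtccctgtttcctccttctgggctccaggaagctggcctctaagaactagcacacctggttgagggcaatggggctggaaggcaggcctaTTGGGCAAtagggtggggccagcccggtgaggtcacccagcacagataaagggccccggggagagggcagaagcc
Matches began 212 and 46 bases before the start in Bpifa1, and 217 and 75 bases before it in Ltf. Neither held a match to the kappaB letters, which says only that these letters are not in this window.

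Other secreted defence genes showed both patterns. Of a list of 62, made up of further BPI-fold, WAP-domain, defensin, chitinase-like, ribonuclease and lectin genes, 36 were in the table and 28 were tested. Between AT2 and Club cells 7 were called higher and 16 lower, beside 8.42% and 9.71% of all genes tested. The median log2 fold change was -2.30 (-2.22 with genes at 0 in a group set to their bound), and -0.10 over all genes. Between BASC and Club cells 6 were called higher and 15 lower, beside 5.77% and 5.42% of all genes, with a median of -1.54 and of -0.10 over all genes. Without either Club replicate the lower calls fell to 10 in AT2 and to 7 in BASC, and without BASC replicate 2 to 8 in BASC.

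Genes of the list that went with the lysozymes included the ribonucleases. Rnase4 had 145 and 117 normalised counts in the Club samples, 9531 and 12293 in the AT2 samples and 7469 and 7415 in the BASC samples (BASC over Club log2 5.83, limma adjusted p = 7.1e-06). Ang, angiogenin, encoded beside Rnase4, was higher by 4.99 in BASC (limma adjusted p = 0.00028) and by 5.68 in AT2 than in Club cells. Cxcl15, a lung chemokine that draws neutrophils, had 4875 and 7460 in the Club samples, 74286 and 65477 in the AT2 samples and 76341 and 70218 in the BASC samples. For these 3 genes every BASC and AT2 sample lay above both Club samples. The collectin Sftpd (log2 1.44, limma adjusted p = 0.00039) and the chitinase Chia1 (log2 2.48, adjusted p = 0.00735) were also higher in BASC than in Club cells, the latter no longer without the variance trend (0.077). Lbp, which binds bacterial lipopolysaccharide, was higher in AT2 than in Club cells by 2.31 (limma adjusted p = 0.000474), and Bpifb5, by 2.00 (0.00967), lost its call without AT2 replicate 1 (0.059) or Club replicate 2 (0.0628).

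The 5 genes named here had the largest log2 fold changes among list genes called lower in BASC than in Club cells, with a Club mean of at least 100. Scgb3a1 had 49424 and 26263 normalised counts in Club cells, 8 and 0 in AT2 and 222 and 47 in BASC (BASC over Club log2 -8.44, limma adjusted p = 0.00343, and 0.0522 without BASC replicate 2). Reg3g had 4930 and 3746 in Club cells, 0 and 3 in AT2 and 33 and 0 in BASC (log2 -9.53, limma adjusted p = 0.0116, and 0.0514 without Club replicate 1). Gp2, a glycoprotein that binds bacterial fimbriae, had 375 and 462 in Club cells and was listed at 0 in the other 4 samples, at least 124-fold lower in BASC and at least 152-fold lower in AT2 with a floor of 3 reads per library. Chil4, a chitinase-like gene, was also listed at 0 there, at least 37.0-fold and 45.4-fold lower. Cp, ceruloplasmin, had 21393 and 18774 in Club cells, 20 and 133 in AT2 and 342 and 165 in BASC (log2 -6.39, limma adjusted p = 0.00276, and 0.0533 without BASC replicate 2).

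Between BASC and AT2, 2 of the 28 were called higher and 0 lower, beside 0.553% and 0.079% of all genes tested. At an unadjusted limma p under 0.05 there were 7 and 3, and no share of all genes at that threshold is given here. Without any 1 of the BASC or AT2 samples 0 were called higher, and without either Club sample 1 was. Hp, haptoglobin, which binds free haemoglobin, had 37659 and 45354 normalised counts in the Club samples, 6055 and 5337 in the AT2 samples and 13081 and 11719 in the BASC samples. In BASC it was 2.18-fold above AT2 (log2 1.12, limma adjusted p = 0.0161). The second was Wfdc1, named after its values were seen, with 36 and 86 in BASC and 0 in both AT2 samples, at least 22.2-fold higher. Without any 1 of the 4 BASC and AT2 samples the call of Hp was lost (limma adjusted p = 0.18 and 0.24 without BASC replicates 1 and 2, and 0.0507 and 0.0846 without AT2 replicates 1 and 2).

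**Figure D5:**
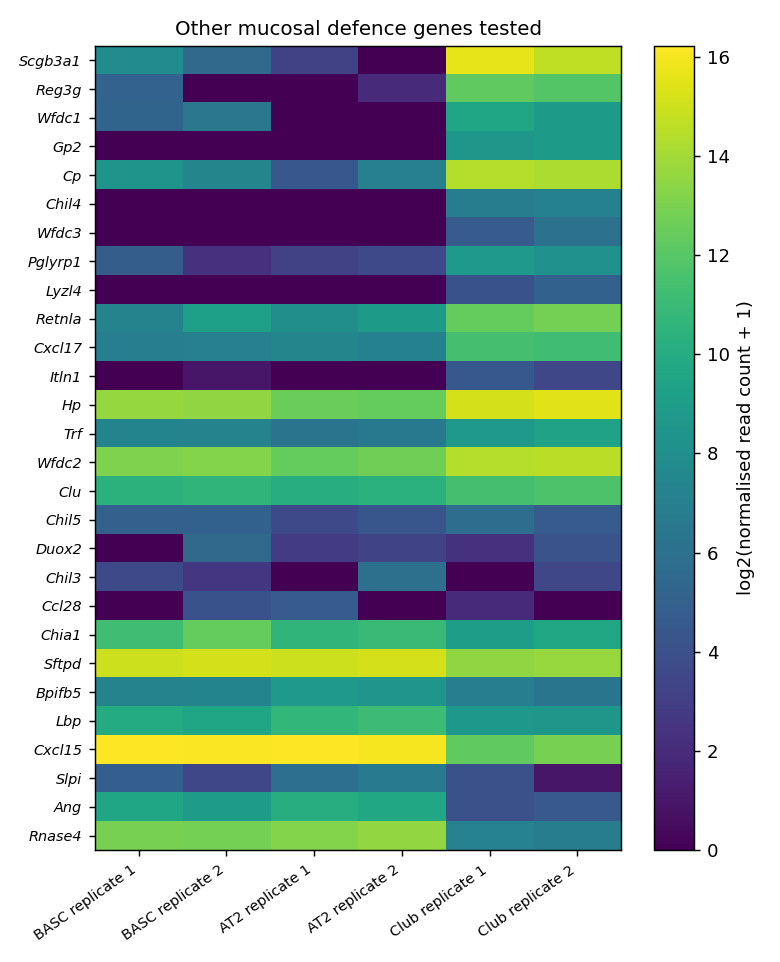
Log2(normalised read count + 1) of the 28 other mucosal defence genes tested, 1 row per gene and 1 column per sample. Within their rows, Rnase4, Ang and Cxcl15 are lower in both Club columns than in the BASC and AT2 columns. Scgb3a1, Reg3g, Gp2 and Chil4 are higher in the Club columns than in the others, and at or near 0 in the AT2 columns. Colours give levels that are not scaled by gene.

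Of 27 receptors, signal proteins and factors listed as regulators of such genes, 25 were tested. Between BASC and AT2 limma called 0 higher and 0 lower, beside 0.553% and 0.079% of all genes tested. At an unadjusted limma p under 0.05 there were 5 and 0, again with no share of all genes at that threshold. Between BASC and Club cells 5 were called higher and 3 lower, beside 5.77% and 5.42% of all genes, and between AT2 and Club cells 3 higher and 5 lower, beside 8.42% and 9.71%. The median log2 fold changes were 0.08, 0.06 and -0.05, over genes that went both ways. With 1 of the samples left out, the 5 and 3 of BASC against Club cells fell to as few as 2 without BASC replicate 2 (3 without either Club sample) and to 1 without any 1 of the 4 samples compared. The 5 lower in AT2 fell to 2 without Club replicate 1 and to 3 without Club replicate 2 or AT2 replicate 2. Nfkbiz, the nuclear partner of NF-kappaB that Lcn2 induction by interleukin-17 is known to need, had 3486 and 3694 normalised counts in BASC, 3095 and 3745 in AT2 and 912 in both Club samples (BASC over Club log2 1.98, limma adjusted p = 0.000195). Cebpa was higher in BASC than in Club cells by 1.20 (limma adjusted p = 0.00317) and in AT2 by 1.38, and the BASC call was lost without the variance trend (0.0887). Cebpb was lower, with log2 fold changes of -1.03 and -1.28.

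Several of these calls rested on single settings. In BASC against Club cells, the interleukin-1 receptor Il1r1 (log2 1.84) was lost without either BASC sample (limma adjusted p = 0.0869 and 0.0852), and Cebpb without BASC replicate 1 (0.0504). Tlr4, Tlr5, Il17rc and Cebpd were each lost without 3 or more of the 4 samples compared, with limma adjusted p up to 0.314. Tlr5, the flagellin receptor, had a log2 fold change of -3.37 in AT2 over Club cells (limma adjusted p = 0.00131) and kept that call under all 15 settings. In AT2 against Club cells Ehf (log2 -0.69, adjusted p = 0.0442) was lost under 7 of 15 settings, and Il22ra1 and Tlr2, named after their values were seen, had Club means under 100.

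The genes closest in pattern were found by the distance between centred log2(value + 1) values over the 6 samples, among 8799 protein-coding genes. For Bpifa1 they were Lgr6 (distance 3.44), Reg3g (3.57) and Muc5b (3.60). For Bpifb1 they were Muc5b (2.23), Scgb3a1 (2.77) and Lgr6 (3.06), and for Ltf Lgr6 (2.28), Reg3g (2.54) and Ccdc129 (3.64). For Pigr they were Fam46b (0.633), Zfp750 (1.12) and Hacd4 (1.31), so none of its nearest genes was shared with the other airway genes. For Lyz1 they were Il33 (1.02), Nkd1 (1.16) and the class II gene H2-Ab1 (1.19), and for Lyz2 Cd83 (0.603), the protease gene Napsa (0.867) and Matn4 (0.878). Lcn2 was nearest to Arfgef3 (0.373), Rflnb (0.414) and Dlc1 (0.425), and Chil1 to Chsy1 (0.196), Slco2a1 (0.324) and Snx25 (0.357). These distances are descriptions, and the samples of 1 group make most of each pattern.

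Neighbours on the chromosome did not all share the pattern. Bpifb5 lies 3373 bases from Bpifb1, yet it had 121 and 78 normalised counts in Club cells, 428 and 356 in AT2 and 153 and 160 in BASC, the reverse order of Bpifb1. Beside the lysozyme pair, 9530003J23Rik, 38628 bases from Lyz2, had 0 in both Club samples, 1 and 0 in the AT2 samples and 72 and 114 in the BASC samples. It was named after its values were seen, and like Lyz2 it was highest in both BASC samples.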

How the data were processed

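RNA from 6 samples, 2 each of BASC, AT2 and Club cells, was prepared with a stranded total RNA kit for very low inputs, per the labels' protocols. Per the submitters' processing notes, alignment used STAR 2.4.0a with mm10 (GRCm38), counting used featureCounts 1.4.5-p1, and FastQC gave the read checks. The sources used here give no annotation release, strand setting or normalization method. The authors deposited 1 signal value per gene and sample, read from the values as gene counts scaled by 1 factor per sample and rounded, and called normalised counts in the text. The worth of 1 read was estimated from gaps and doublings among low whole numbers. Since whole reads were not recovered exactly, count models were not run.

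Values were taken as log2(value + 1). A gene was kept if 2 or more samples reached 10 (17721 of 22239 genes), and all 6 samples were fitted by group with limma 3.58.1 in R 4.3.3 (eBayes with trend, degrees of freedom 3 residual and 4.2 prior). Tests were 2-sided, with Benjamini-Hochberg adjustment over all genes tested and calls at adjusted p under 0.05. The script was tested on simulated data. Fold changes are ratios of group means unless called fitted or ratios of reads.

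The genes and lists were chosen with earlier results of these data known. Besides the 8 genes, the text names up to 5 called genes per list, comparison and direction whose higher group reached a mean of 100, the 3 genes nearest in pattern to each of the 8, and Scgb1a1 and Sftpc. Gene positions are those deposited, and 99.8% of identifiers were found in GENCODE mouse release 21, which gave transcripts and exons. Promoters are from RefSeq and matched all 8 genes. Alternatives covered the pseudocount, the filter on low values, quantile normalization, another scaling, eBayes without trend, a replicate block, fits of 4 samples and leaving out each sample.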

Additional observations from a re-analysis of the deposited data

How the results depend on the processing

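The comparison of AT2 with Club cells held for all 8 genes under all 15 alternatives (120 of 120 kept direction and call). In BASC against Club cells 118 of 120 did, and in BASC against AT2 cells 98 of 119 did, with 5 calls lost, 15 gained and 1 direction turned, that of Ltf, which ran from -0.50 without BASC replicate 1 to 4.86 without BASC replicate 2. Without the eBayes trend, 849 genes were called higher in AT2 and 499 in BASC than in Club cells, 2 of the 8 genes were called lower in BASC than in Club cells, and 34 genes were called lower in BASC than in AT2, with 0 of the 8 higher. For BASC against AT2, a filter of 50 gave 204 genes higher and 61 lower (2 and 2 of the 8), the 4 samples alone 60 and 45 (0 and 2 of the 8), a pseudocount of 8 gave 30 lower (2 of the 8), and quantile normalization called 2 of the 8 lower. Quantile normalization also turned Sftpc in BASC against AT2 to 0.17 and moved the place of Lyz2 in BASC to -79.3%, and the other scaling moved it to -50.7%. The causes were not tested.

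Leaving out 1 sample at a time gave 902 to 1459 genes higher and 574 to 1832 lower in AT2 against Club cells, 480 to 913 and 196 to 975 in BASC against Club cells, and 3 to 100 and 0 to 27 in BASC against AT2, with 0 to 2 of the 8 genes called in each direction. The smallest counts in BASC against AT2 came without BASC replicate 1 (3 and 0) or 2 (4 and 0). The place of Lyz1 in BASC ran from 62.8% to 78.0%, and that of Ltf from -0.006345%, without BASC replicate 1, to 0.501%. A lone sample left in a group is assumed to vary like the other groups.

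With the replicate number as a block, 1453 genes were called higher and 1592 lower in AT2 against Club cells, 1004 and 857 in BASC against Club cells and 102 and 18 in BASC against AT2, and no call of the 8 genes changed. The replicate differences of 2 groups correlated across genes at 0.006 to 0.012. Such a value over all genes cannot show whether samples of equal number share an animal or a day. With 2 samples per group, genes near the floor of 3 reads, such as Ltf in BASC and AT2, carry the widest errors.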
